A study of Mus musculus with 2 samples.

Results

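Mir137 is the gene of the microRNA miR-137, and it was taken by its name in the GENCODE M21 annotation, which gave 1 row of the 2202 microRNA genes in the deposited tables. The tissue was left cerebral cortex, taken from 2 female B6CASTF1/J hybrid mice at an age of 36 days, and total RNA was made into microRNA-seq libraries with a labelled size range under 30 bases. Both mice carry the same genotype and no treatment is labelled, so they form a single group of n = 2, named here mouse 2 and mouse 1 after their replicate numbers. Each mouse gave 1 library, and a difference between the animals cannot be told apart from a difference between the library preparations.

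MicroRNAs are cut from the stem of a hairpin precursor, loaded into Argonaute proteins and guided to messenger RNAs by their seed, bases 2 to 8 from the 5′ end. miR-137 is a brain-enriched microRNA that neurons make, and in mouse work it is known for affecting the proliferation of neural stem cells, shaping dendrites and acting on proteins of the synaptic vesicle cycle. The human MIR137 locus is one of the best known association loci for schizophrenia.

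The hairpin of Mir137 (ENSMUSG00000065569.2) lies on the plus strand of mouse chromosome 3, at 118433857 to 118433929 on mm10 (GRCm38). The sequences are those of RefSeq on GRCm38.p6, and the RefSeq hairpin is letter for letter that of GENCODE M21. They are shown because every count below is a count of reads over these 73 bases. In the hairpin the capitals mark the 2 mature arms, and in each mature sequence they mark the seed.
Mir137 hairpin: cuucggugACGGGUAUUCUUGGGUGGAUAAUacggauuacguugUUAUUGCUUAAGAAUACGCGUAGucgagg
mmu-miR-137-5p: aCGGGUAUucuuggguggauaau
mmu-miR-137-3p: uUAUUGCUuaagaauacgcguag

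Both arms are 23 bases long, with 13 bases between them. In the minimum free energy structure predicted by RNAfold, the hairpin held 30 base pairs at −31.2 kcal per mol, and 20 of the 23 bases of the 5p arm were paired with bases of the 3p arm. All 7 seed bases of the 3p arm were paired in that structure. Per base, 42.9% of the 324 hairpins with a mean of at least 10 CPM (counts per 1000000) were predicted to fold more weakly than Mir137, so its predicted stability was ordinary among them. The tables count reads per gene, so reads of the 5p and the 3p arm are summed and the arm that was read cannot be told.

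Mir137 stands alone in its seed family. Among 1738 mature sequences of 1058 genes in the RefSeq table, none from another gene shared the seed of miR-137-3p or that of miR-137-5p, and none shared bases 2 to 7 of either arm. Of 276 detected genes with a mature sequence in that table, 119 (43.1%) likewise had seeds found in no other gene. A single mature sequence of another gene, miR-7067-3p, shared bases 3 to 8 of miR-137-3p, and its gene Mir7067 had 0 counts in mouse 2 and 2 in mouse 1, under the limit of 3 counts that a count of 0 allows. The 6 bases UAUUGC, bases 2 to 7 of miR-137-3p, also open the mature microRNAs of 4 genes of the miR-92 family, placed 1 base nearer to the 5′ end. These are shown to set the offset beside the miR-137 seed above, and the capitals mark the 6 common bases.
mmu-miR-92b-3p: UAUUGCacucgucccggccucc
mmu-miR-92a-3p: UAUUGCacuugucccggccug
mmu-miR-32-5p: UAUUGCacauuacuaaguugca
Of their genes, Mir92b averaged 4912 ± 565 CPM (SD, n = 2 mice), Mir92-1 averaged 547 ± 118 CPM and Mir32 averaged 19.3 ± 8.31 CPM. Mir92-2, which encodes the same mature sequence as Mir92-1, averaged 16.3 ± 0.341 CPM. The hairpins of Mir92-1 and Mir92-2 have a stretch of 20 bases in common with another hairpin and may be undercounted, whereas those of Mir92b and Mir32 do not.

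The Mir137 hairpin is exonic in a long non-coding gene. Gm26871, annotated as a processed transcript on the same strand (chromosome 3, 118430324 to 118530022), has 6 transcripts, and the hairpin lies wholly inside exon 1 of one of them and exon 3 of another. The first exon of a further transcript, starting at 118433922, overlaps the last bases of the hairpin. No annotated transcript of Gm26871 holds the hairpin in an intron. The nearest protein-coding genes were Dpyd, which encodes the enzyme that starts pyrimidine breakdown, 128.2 kb beyond the hairpin, and the sorting nexin gene Snx7, 564.9 kb before it. A second annotated microRNA gene, Gm24155 (118434721 to 118434830, plus strand), begins 792 bases beyond Mir137 and had 0 counts in both mice. A count of 0 allows a level of at most 1.61 CPM for mouse 2 and 1.55 CPM for mouse 1. It lies partly in the lincRNA gene Gm9916 (118434770 to 118435997). Gm24811, the nearest annotated microRNA gene on the other side, also had 0 counts in both mice.

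**Figure D1:**
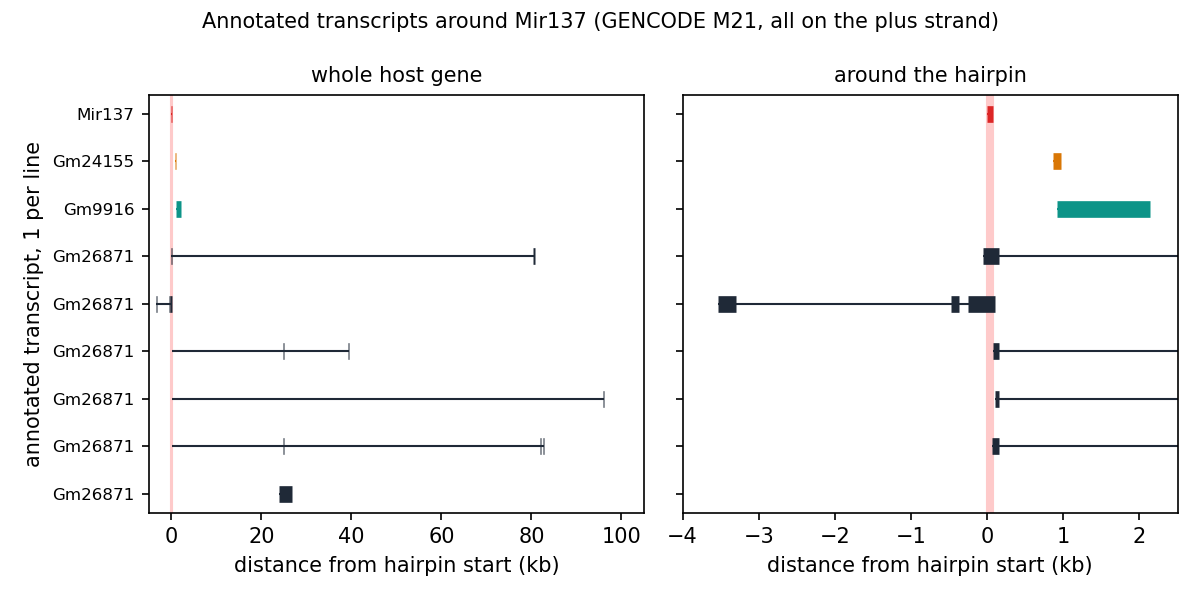
Annotated transcripts around Mir137, each on a line of its own, against the distance from the hairpin start in kb, with thick bars for exons and a shaded band for the hairpin. The left panel shows the whole of Gm26871 and the right panel the surroundings of the hairpin, which falls inside an exon of 2 Gm26871 transcripts, overlaps the first exon of another, and has Gm24155 792 bases beyond it.

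Mir137 was among the abundant microRNA genes of the cortex. Mouse 2 gave 18582 sense-strand counts for it, of 1863876 over all genes, and mouse 1 gave 11133 of 1930234. As counts per 1000000 sense counts (CPM), these were 9970 CPM in mouse 2 (95% exact Clopper-Pearson interval 9827 to 10113) and 5768 CPM in mouse 1 (5661 to 5876), or 7869 ± 2971 CPM (SD, n = 2 mice). The intervals cover counting error only, because each mouse gave 1 library. Reads without molecular identifiers are not independent molecules, so the intervals may be too narrow even for that error. Mir137 thus took 0.997% of mouse 2's counts and 0.577% of mouse 1's, and the intervals do not overlap.

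By mean CPM Mir137 ranked 29 of 2202 genes, above 90.5% of the 304 genes that reached 10 CPM in both mice. It ranked 21 in mouse 2 and 34 in mouse 1. Reads that mapped to several places (51.2% of mapped reads in mouse 2 and 50.9% in mouse 1) entered no gene count, and genes that share sequence may therefore rank too low. The longest run that the Mir137 hairpin shares with any other listed hairpin is 11 bases, so Mir137 is not among the genes with a run of 20 bases in common. Among the 1118 genes with no such run Mir137 ranked 24. Its unstranded count equalled its sense count in both mice, and 0 counts lay on the opposite strand.

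**Figure D2:**
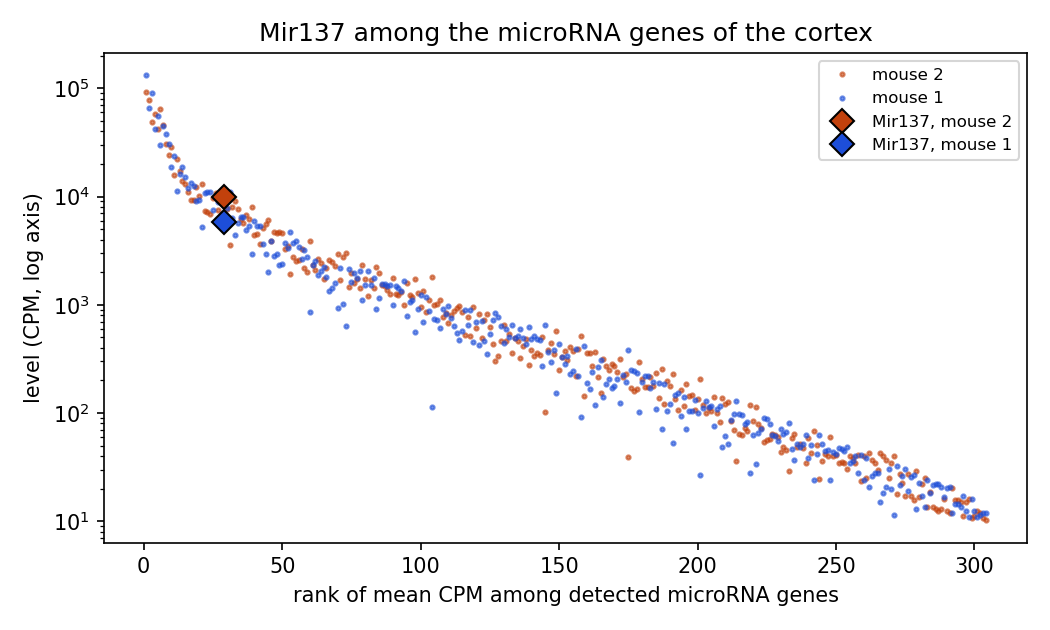
Level in CPM (log axis) of the 304 detected microRNA genes against the rank of their mean CPM, with a point for each mouse and diamonds for Mir137. Mir137 sits at rank 29, with mouse 2 at 9970 CPM and mouse 1 at 5768 CPM, past the steep head of the distribution.

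The order of genes around Mir137 is not resolved by 2 mice. In 16 genes both mice stood above both Mir137 values, in 24 genes the range over the mice overlapped that of Mir137, and in 2161 both mice stood below. The lowest of the 16 was Mir151, at 10941 CPM for mouse 2 and 12071 CPM for mouse 1. Just above Mir137 in mean level came Mir29a (7870 ± 2392 CPM), Mir149 (8170 ± 1036 CPM), Mir411 (8402 ± 3408 CPM), Mir191 (8610 ± 1525 CPM) and Mir324 (8976 ± 2843 CPM). Just below came Mir382 (7735 ± 65.5 CPM), Mir99b (7332 ± 5290.5 CPM), Mir379 (7175 ± 1197 CPM), Mir143 (6755 ± 3330 CPM) and Mir100 (6653 ± 1376 CPM). The ranges of all 10 overlapped that of Mir137. Of the 10 neighbours 6 were higher in mouse 2, as Mir137 was, and 4 were lower in mouse 2, namely Mir99b, Mir324, Mir149 and Mir382. Mir99b stood furthest apart of these, at 3591 CPM for mouse 2 against 11073 CPM for mouse 1.

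**Figure D3:**
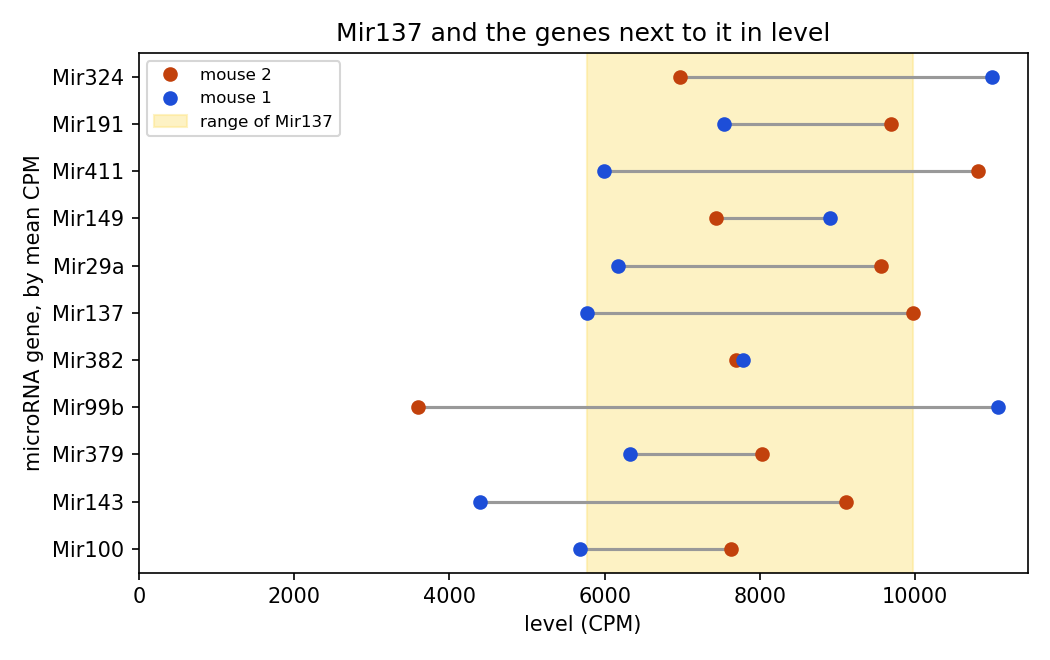
Level in CPM of Mir137 and of the 5 genes just above and 5 just below it in mean CPM, with a point for each mouse joined by a line and the range of Mir137 shaded. All 10 neighbours reach into the shaded range from 5768 to 9970 CPM.

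Genes most like Mir137 in both libraries at once were found by their distance over the log2 CPM of mouse 2 and of mouse 1, among the 324 genes whose mean reached 10 CPM. Mir29a was nearest, at a distance of 0.12 log2 units, where mouse 2 had 9561 CPM and mouse 1 had 6178 CPM. It belongs to the miR-29 family, which is known from glia as well as from maturing neurons. Mir411 followed at 0.13, where mouse 2 had 10811 CPM and mouse 1 had 5992 CPM, then Mir379 at 0.34, Mir191 at 0.39 and Mir100 at 0.39. Mir411 and Mir379 both belong to the imprinted microRNA cluster on chromosome 12. Likeness over 2 libraries is a description of these samples.

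By reads given to a single gene, Mir137 was the most abundant microRNA gene of its chromosome. Mir9-1 and Mir124a-2, both on chromosome 3, have stretches in common with other hairpins, so their counts and with them this rank and the shares below leave out reads that fit several places. Of 97 microRNA genes listed on chromosome 3, 10 were detected and 70 had no count in either mouse. Mir137 made up 59.8% of the chromosome's microRNA counts in mouse 2 and 44.4% in mouse 1. Mir92b came next, at 8410 counts for mouse 2 and 10252 counts for mouse 1, and then Mir760, at 2452 counts for mouse 2 and 2566 counts for mouse 1. Both lay lower than Mir137 in both mice. Mir760 was also the nearest detected microRNA gene, 3860 kb beyond Mir137.

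Among neuron-enriched microRNA genes Mir137 stood near the top. Their list of 26 genes was drawn from general knowledge, with earlier results of these data known, so standing in it depends on that choice. Of these genes 22 were detected, and the list took 20.94% of mouse 2's counts and 21.02% of mouse 1's. Mir137 contributed 4.76% of the list's counts in mouse 2 and 2.74% in mouse 1. It ranked 4 of 26 by mean CPM, and 3 of the 10 members with no run of 20 bases in common with another hairpin. Mir139 (mouse 2 92535 CPM, mouse 1 132003 CPM), the activity-induced Mir132 (mouse 2 64860 CPM, mouse 1 29894 CPM) and Mir128-1 (mouse 2 17178 CPM, mouse 1 16283 CPM) lay above Mir137 in both mice. Mir383 was the other member whose range overlapped that of Mir137, at 4421 CPM for mouse 2 against 5930 CPM for mouse 1. The other 21 members lay below it in both mice, among them Mir138-1 (4386 ± 1065 CPM), which acts at dendritic spines, and Mir7b (1561 ± 573 CPM). The 3 copies of Mir124a and Mir9-2 did not reach 10 CPM. Of the 21 members below Mir137, 15 have 20 bases in a row in common with another hairpin, these 4 and Mir138-1 among them, so their place below Mir137 is uncertain.

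**Figure D4:**
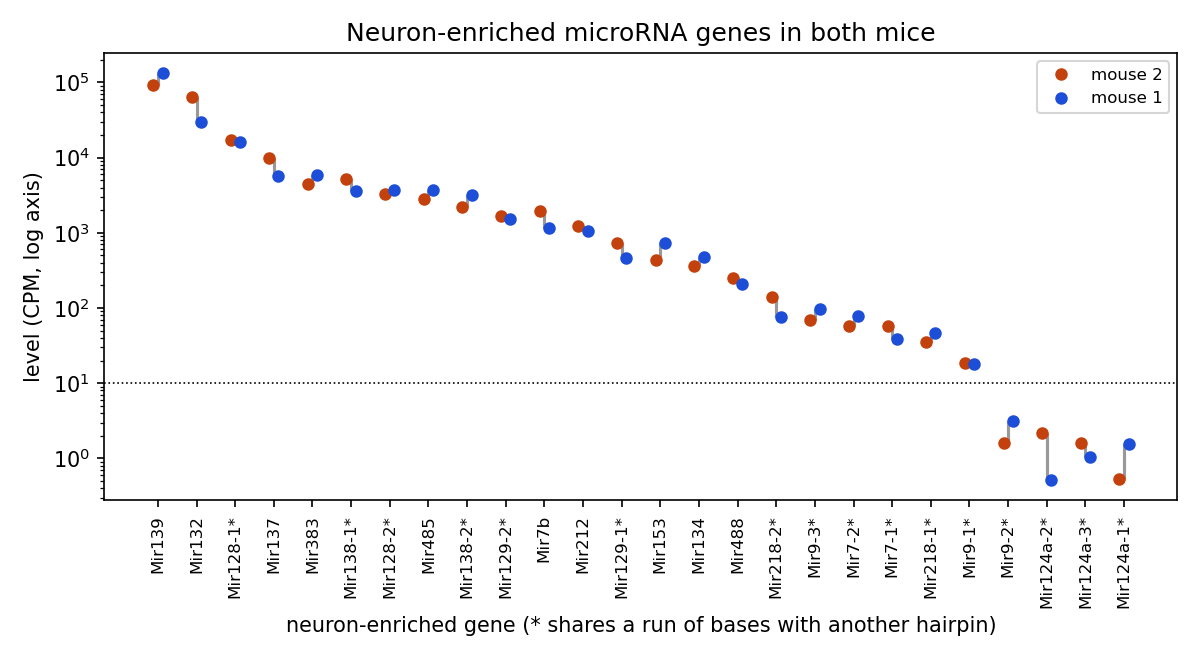
Level in CPM (log axis) of the 26 neuron-enriched microRNA genes in mouse 2 and mouse 1, ordered by mean CPM, with a dotted line at 10 CPM and asterisks for hairpins that have a run of 20 bases in common with another. Mir137 follows Mir139, Mir132 and Mir128-1, and the 4 genes under the line all carry an asterisk.

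A pair of further lists, chosen in the same way, set Mir137 beside microRNAs studied in the same settings. Of 18 names studied in adult neurogenesis and neural differentiation, 17 were in the tables and 13 were detected. Mir137 ranked 3 of the 17, after Mirlet7b (69419 ± 28805 CPM), which restrains neural stem cell proliferation in mice, and Mir132 (47377 ± 24725 CPM). Mir184, which promotes proliferation of adult neural stem cells in mice, averaged 164 ± 37.3 CPM, and Mir34a averaged 1982 ± 262 CPM. Of 19 names studied in schizophrenia or its mouse models, 18 were in the tables and 16 were detected. In both lists the name not matched was Mir195, while Mir195a, listed beside it, was matched. Mir137 ranked 2 of these 18, after Mir132 and before Mir30e (3746 ± 1152 CPM). In each list 8 members, all below Mir137, have a run in common with another hairpin, as described above, and may be undercounted. Among them are the Mir124a copies in the neurogenesis list and the Mir9 copies in both lists. Their place below Mir137, and with it the rank of Mir137 in these lists, is therefore uncertain. Mir185, which lies in the region matching human 22q11 and is studied in mice lacking it, averaged 1748 ± 42.9 CPM, and Mir338 averaged 1972 ± 906 CPM.

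Mir137 was higher in mouse 2, by 1.67-fold (log2 ratio 0.74, 95% counting interval 0.71 to 0.78, mouse 2 over mouse 1 with TMM library sizes). The 1.67-fold difference passed a two-sided exact binomial test adjusted by Benjamini-Hochberg over 324 genes at 0.05, as did 74.7% of those genes, and it stayed under the 2-fold also asked of a call. Of the 324 genes, 19.4% passed both, 14.2% higher in mouse 2 and 5.25% lower in mouse 2, and by the adjusted test alone 38% were higher in mouse 2. The test compares 2 libraries for counting error and not 2 conditions. The spread beyond counting error, as edgeR's common biological coefficient of variation, was 0.397, and the median absolute log2 ratio was 0.53. Of the 324 genes, 65.1% differed less than Mir137, and 72 had a larger log2 ratio. Among the 102 genes at 1000 CPM or more, 27 differed more than Mir137 and 14 passed the test and 2-fold. The difference in Mir137 was thus of a size common between these libraries.

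**Figure D5:**
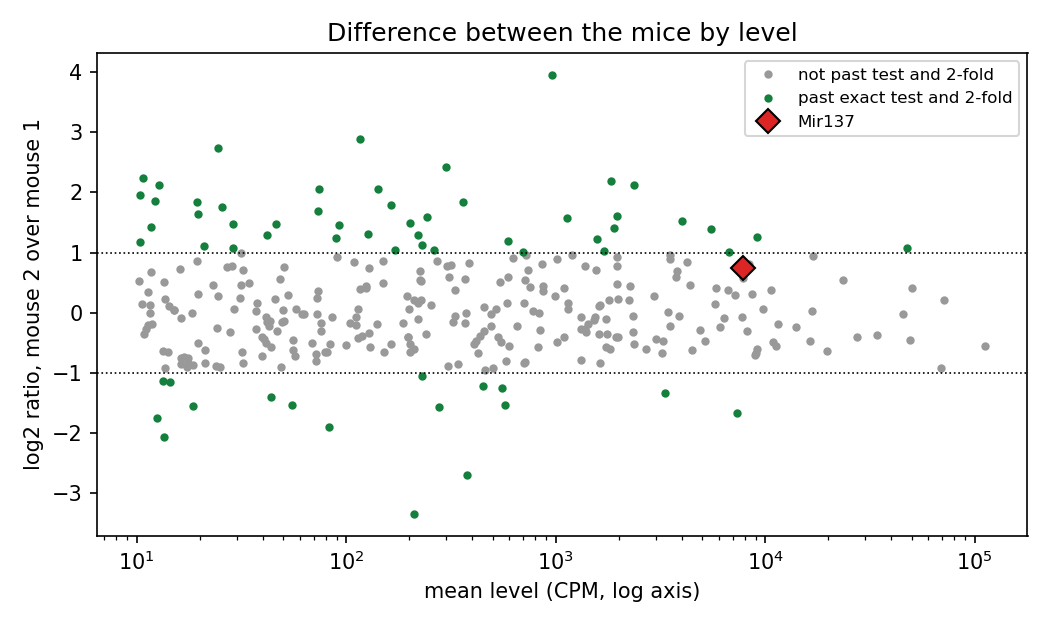
Log2 ratio of mouse 2 over mouse 1 against mean CPM (log axis) for the 324 tested genes, with dotted lines at 2-fold and genes past the exact test and 2-fold in green. Mir137, the red diamond, lies at 0.74, inside the 2-fold lines and among many genes of like level.

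The tested neuron-enriched genes were split between the mice. Among its 22 members tested, 1 passed the test and 2-fold, Mir132 (log2 ratio 1.07), beside 19.4% of all 324 genes. By the adjusted test alone 11 members were higher in mouse 2, beside 38% of all 324 genes, and 9 were lower in mouse 2. Of all 324 genes 242 passed the adjusted test, 123 of them higher in mouse 2, so the tested genes as a whole were split too. The median log2 ratio of the 22 members was 0.02, beside 0.00 over all 324 genes. Of the 13 tested neurogenesis genes 1 passed, Mir132 again, with a median of −0.13. Of the 16 tested schizophrenia genes 2 passed, Mir132 and Mir107 (1.41), with a median of −0.05, and both counts again stand beside 19.4% of all genes. The members of the lists were chosen by name, and these medians are given as descriptions.

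The shares of counts taken by markers of other cell types stand beside that difference. The 4 oligodendrocyte genes took 0.513% of mouse 2's counts and 0.276% of mouse 1's, with Mir338 at a log2 ratio of 0.93, Mir219a-2 at 0.78 and Mir219b at 0 counts in both mice. The 4 endothelial and mural genes took 3.18% of mouse 2's and 1.59% of mouse 1's. Mir126a stood at 0.94, Mir145a at 0.86 and Mir143 at 1.00 (past the test and 2-fold), and Mir126b had 0 counts in both mice. The 3 genes of red blood cells took 0.0153% of mouse 2's and 0.0742% of mouse 1's. Mir451a stood at −2.70 and Mir144 at −1.40, both past the test and 2-fold. Mir486, which also has such a run in common, stood at −0.33. The 4 microglia and leukocyte genes took 0.147% of mouse 2's and 0.164% of mouse 1's. Mir150 made up most of that share (log2 ratio −0.33), while Mir142 was higher in mouse 2 (1.46, past the test and 2-fold). Mir155 stood at 0.06, and Mir223 had 22 counts in mouse 2 and 11 in mouse 1. The 7 choroid plexus and epithelium genes took 0.0693% of mouse 2's and 0.0748% of mouse 1's. Mir204 made up most of it (−0.03), while Mir200b was lower in mouse 2 (−1.89, past the test and 2-fold). Mir429 stood at 0.40 and Mir200a at −0.75. The others had few counts: Mir200c 22 in mouse 2 and 11 in mouse 1, Mir211 1 and 8, and Mir141 2 and 0. Mir29a with Mir21a, which stand for astrocytes and reactive glia without being specific, took 1.35% of mouse 2's and 0.704% of mouse 1's. Mir29a stood at 0.58 and Mir21a at 2.13 (past the test and 2-fold). Mir146a was also on that list but matched no symbol. The gene under the symbol Mir146 (1.01, past the test and 2-fold) was not counted in that share. Of all 324 genes, 19.4% passed the test and 2-fold. The part of these cell types in the difference of Mir137 was not tested. In a tissue library fewer cells of a type and less RNA per cell cannot be told apart.

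Sites for the miR-137-3p seed were looked up in messenger RNAs that earlier work names as its targets, to show what the counted sequence reads. No messenger RNA was measured in these samples. The searched site AGCAATA, the complement of bases 2 to 8, was looked for on the transcript strand of the longest annotated 3′ UTR of each gene. It occurred in 9.67% of 21037 genes, and in 17.7% of those whose 3′ UTR was within 1.5-fold of the median length of the named targets, 2598 bases. It occurred in 6 of the 9 targets: Kdm1a, Mib1, Cplx1, Syt1, Cdk6 and Mitf. Ezh2, Nsf and Gria1 did not hold these letters in their longest annotated 3′ UTR. The 3′ UTRs of the 9 targets ran from 308 bases (Kdm1a) to 10217 bases (Cdk6). The shares above were therefore not matched in length to each target. Earlier work may have named targets through this site, so 6 of 9 is a description and not a test of enrichment. Kdm1a encodes a histone demethylase, Cplx1 and Syt1 encode proteins of synaptic vesicle release, Cdk6 encodes a cell cycle kinase and Mitf a transcription factor of pigment cells. The first site of 5 genes follows, in GENCODE M21 transcript letters, with the site in capitals.
Kdm1a, GRCm38 chr4:136550777-136550806, minus strand: tgccacgtaagcaagctcttctAGCAATAc
Cplx1, GRCm38 chr5:108519497-108519526, minus strand: attccatggccagaggaaacacAGCAATAg
Syt1, GRCm38 chr10:108500317-108500346, minus strand: ctccaaatctactcttcttttaAGCAATAt
Cdk6, GRCm38 chr5:3526591-3526620, plus strand: ttaggcttgagagtgatgtttaAGCAATAa
Mitf, GRCm38 chr6:98020995-98021024, plus strand: tttggttgtttgtaaacaataaAGCAATAa
In the sites of Cdk6 and Mitf the base that follows is an A, which makes the 8-base site AGCAATAA, found in 4.07% of all genes. A match of letters is a description of the sequence and does not show binding in the cortex.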

How the data were processed

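The authors deposited whole-number read counts per microRNA gene for each library, in 3 columns read from their values as unstranded, sense and opposite-strand counts. The assembly is mm10 and the annotation GENCODE M21, per the submitters' README notes. The aligner, the counter and the trimming are not given in the sources used here. Lines that name no gene (70.2% of reads in mouse 2 and 72.7% in mouse 1, mostly unmapped or mapped to several places) were left out of library sizes. Reads that differ from mm10 through CAST alleles may have been lost, which was not tested.

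From the sense counts, CPM was computed over 1863876 (mouse 2) and 1930234 (mouse 1) counts, and 10 CPM in both mice was called detected. Genes at 10 CPM or more on average were compared with an exact binomial test on TMM library sizes (edgeR 4.0.16), with p-values below 1e-300 set to that value. Hairpins were folded with RNAfold 2.7.2. Named genes were Mir137, its neighbours in level, likeness, seed and position, and the listed genes. Mir137, the lists and the tests were chosen with earlier results of these data known, and the target genes, Mir7067, the miR-92 relatives and Mir151 after values were seen. Both libraries carry 1 donor code but different animal numbers, and were treated as different animals. Other totals, columns, filters and scalings (DESeq2 1.42.0) were tried.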

Additional observations from a re-analysis of the deposited data

How the results depend on the processing

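The level of Mir137, 7869 CPM, depends on the total it is divided by. It was 2272 CPM over all reads in the table, 3202 CPM over mapped reads, and 16619 CPM with the 10 most abundant genes left out of the total. In the unstranded column it was 8514 CPM and with TMM library sizes 7835 CPM. Leaving out each replicate gave 5768 to 9970 CPM, and a rank between 21 and 34. The rank was 25 in the unstranded column, 29 among Mir symbols and 24 among hairpins with no shared run. The log2 ratio of Mir137 was positive and under 2-fold in all 6 alternatives, from 0.61 with the trend of hairpin GC content removed to 0.79 with total counts. Neither dropping the filter nor asking for a mean of 100 CPM could move the ratio. Library sizes were computed before filtering, so both gave 0.74. Mir137 has 45.2% GC, beside a median of 50.9% over the tested hairpins. Of the genes apart between the mice, 63 of 324, 36 of 207 were left at a mean of 100 CPM or more, since fewer genes were tested. The other 5 alternatives gave 60 to 71, but not all of the same number of tested genes. Dropping the filter gave 71 of 722, a lower share, and the unstranded column gave 62 of 308. The lowest count, 60 of 324, came with the GC trend removed, which was added for this count after the data were seen. No paired analysis was possible because there is a single group. Depth does not limit the counts of Mir137, but 2 libraries leave the spread between animals poorly known.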
